A study of Mus musculus with 19 samples.

Results

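The 34 genes described here make bile acids, carry them into and out of liver cells, or sense them, and they were taken by symbol from the 35976 rows of the deposited table of read counts. They fall into 16 synthesis genes, 5 uptake carriers, 4 genes of export into bile, 4 genes of export back to blood and 5 receptors and controlling factors. RNA was measured in 19 livers, 1 library per mouse: 7 Pkd1 WT, 6 Pkd1 Het and 6 Pkd1 Homo, which were littermates. Every mouse, WT included, had received AAV-Cre, an adeno-associated virus that carries Cre recombinase, and every mouse had 3 months of a Western diet with the liver toxin carbon tetrachloride (CCl4), which the labels call a NASH model. Het and Homo were read as 1 and 2 mutant Pkd1 alleles. The capsid and promoter of the virus, the share of cells it reached, and the age and sex of the mice are not stated in the labels. The series title speaks of mutant clones, so a library may mix mutant and unrecombined cells.

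Bile acids are made from cholesterol in hepatocytes. The classic route starts with Cyp7a1 and the alternative route with Cyp27a1 and Cyp7b1, and both end in peroxisomes, where the side chain is shortened and joined to taurine or glycine. Carriers of the sinusoidal membrane return bile acids from portal blood, and pumps of the canalicular membrane secrete them. Nr1h4 (FXR) senses bile acids in the hepatocyte and induces Nr0b2 (SHP), which represses Cyp7a1. The intestinal hormone Fgf15 does the same through Fgfr4 and its partner Klb.

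Libraries held 25.8 M to 42.1 M counts. Hepatocyte markers summed to 24741 to 30599 CPM (counts-per-million, scaled by TMM library sizes) over the 19 livers, which matches the liver label. Pkd1, whose row does not separate mutated from intact exons, had a mean of 405 ± 38.6 CPM (SD, n = 7) in WT, 390 ± 46.2 CPM (n = 6) in Het and 357 ± 19.7 CPM (n = 6) in Homo, and no difference between genotypes passed the test. Bile duct markers, a list of 11 genes with none at 0, summed to 153 to 257 CPM in WT (median 169), 149 to 224 CPM in Het (median 179) and 216 to 287 CPM in Homo (median 257). Of the 10 tested, 3 (Krt7, Krt19 and Muc1) were called higher in Homo than in WT, beside 48 of all 16463 genes. Another 3 of the 10 had log2 estimates below 0 there, the lowest -0.64, and 0 were called lower. In whole liver, fewer cells of a type and less RNA per cell cannot be told apart. The number in each sample's title is called the mouse number below; what it stands for is not stated, and numbers 1 to 3 are all WT.

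Per kilobase of exon, the most abundant of the 34 in WT livers was Scp2, at 563 ± 61.8 CPM per kb (SD, n = 7). Scp2 encodes the peroxisomal thiolase of side-chain shortening, but its row counts all transcripts of the gene together. Of the 50-base windows of Scp2 transcripts, 29.7% also occur in another gene, most in Scp2-ps2. The organic anion carrier Slco1b2 followed at 378 ± 42.8 CPM per kb. Hsd3b7 stood at 213 ± 62.1, Slc10a1 at 181 ± 11.4 and Slc27a2 at 172 ± 19.0 CPM per kb, neighbours that lay within 1 SD of Hsd3b7. The first enzyme of the classic route, Cyp7a1, was 15th at 58.5 ± 42.8 CPM per kb in WT and 10th in Homo at 96.4 ± 23.5. Cyp8b1, which directs the pathway to cholic acid, had a median of 19.7 CPM per kb. The low end held Slc51b at 0.357 ± 0.172, Gpbar1 at 0.0553 ± 0.0583 and Slc51a at 0.0154 ± 0.0157 CPM per kb. Slc51a (0 to 4 counts per library) and Gpbar1 (0 to 6 counts) did not pass the filter on low counts, and Slc51b passed it with 1 to 22 counts per library. The other 32 genes entered the tests.

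**Figure D1:**
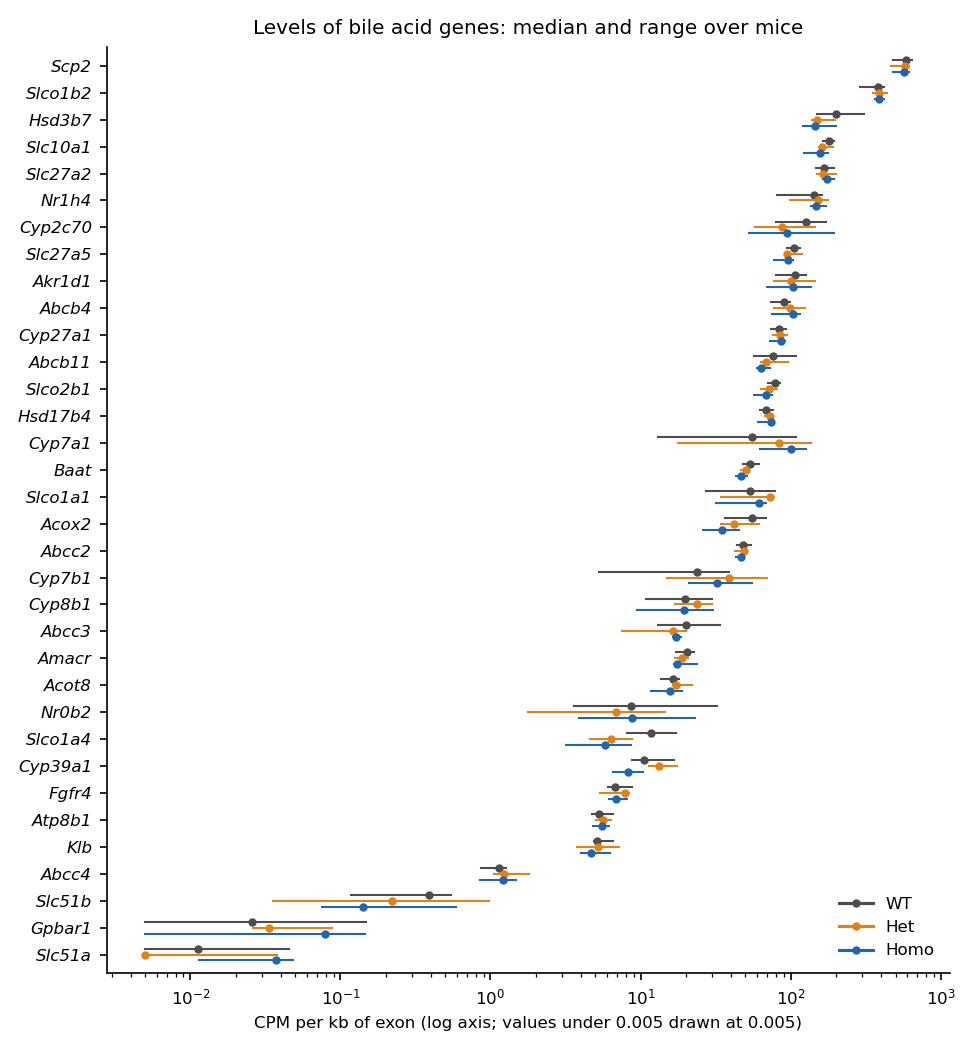
Levels of all 34 genes in each genotype, as CPM per kilobase of exon on a log axis, with the median as a point and the range over mice as a line (7 WT, 6 Het, 6 Homo). Scp2 and Slco1b2 lead in every genotype, Slc51b, Gpbar1 and Slc51a sit lowest, and the widest ranges among the tested genes above 1 CPM per kb are those of Cyp7a1, Cyp7b1 and Nr0b2.

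Of the 32 genes tested, 1 was called lower in Homo than in WT and none was called higher: Slco1a4, an uptake carrier, at an adjusted p under 0.05 (edgeR's quasi-likelihood test, Benjamini-Hochberg over 16463 genes). The background in that comparison was 79 called genes, 0.480% of all tested. In Het against WT none of the 32 was called by edgeR or limma-voom and 1, Slco1a4 again, by DESeq2. The background there was 4 genes (0.0243%) by edgeR and 28 genes by DESeq2, each of 16463. In Homo against Het none was called by edgeR or limma-voom and 1, Cyp39a1, by DESeq2. The background there was 30 genes (0.182%) by edgeR and 102 genes by DESeq2, each of 16463. A fit of a slope over the number of mutant alleles called 1 gene, Slco1a4, with a background of 0.449%.

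Without correction for multiple tests, 9 of the 32 genes (28.1%) were lower in Homo than in WT at p under 0.05 and 0 were higher, where 6.52% of all genes tested were lower and 6.37% higher. The 9 were Cyp39a1, Hsd3b7, Acox2, Slc27a5, Baat, Slc10a1, Slco1a4, Slco2b1 and Abcb11, so they came from synthesis (5), uptake (3) and export into bile (1). In Het against WT 4 genes (Hsd3b7, Baat, Slco1a4 and Abcc3) were lower and 0 higher on the same unadjusted threshold, beside 4.26% of all genes lower and 4.57% higher. In Homo against Het 1 gene, Cyp39a1, was lower and 0 were higher, beside 2.35% and 3.94% of all genes. The counts describe the list and carry no test of it. In Homo against WT, on the same threshold, 3 of 8 hepatocyte, 3 of 8 periportal hepatocyte and 2 of 5 endothelial markers were lower and 0 higher. Of 10 bile duct markers, 5 were higher and 0 lower. Of 8 pericentral hepatocyte, 6 Kupffer and macrophage and 6 stellate markers, 0 passed in either direction, nor did any T or B cell marker. The part of these markers in the count of the 9 genes was not tested. The median log2 fold change over the 32 was -0.08 in Homo and -0.0020 in Het, both against WT, where the medians over all genes were 0.0019 and -0.0043. Both comparisons share the 7 WT mice.

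**Figure D2:**
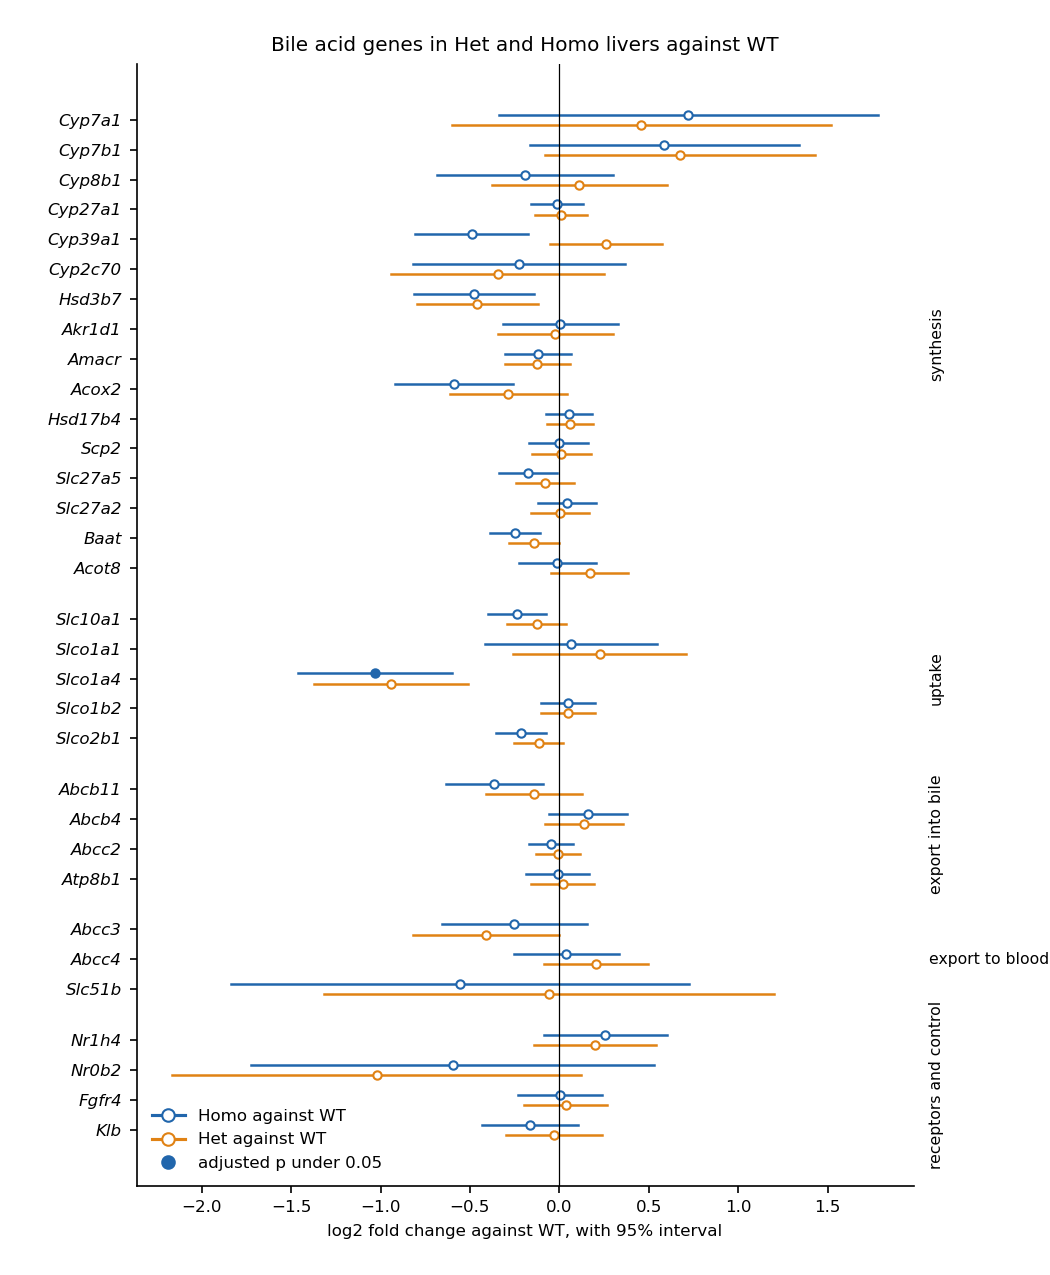
Log2 fold change against WT of the 32 tested genes by role, with 95% intervals, for Homo (blue, 6 mice) and Het (orange, 6 mice), each against the same 7 WT mice. The single filled point, Slco1a4 in Homo at -1.03, is the only one with an adjusted p under 0.05; its Het value is -0.94, and Cyp39a1 is the one gene with a Homo interval below 0 whose Het estimate (0.26) lies above 0.

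The 16 synthesis genes gave no call by edgeR in any genotype comparison. In Homo 11 of the 16 had an estimate below 0, with a median log2 fold change of -0.07, and in Het 7 of 16 with a median of 0.0043. The first enzymes of the 2 routes varied widely between mice of a genotype. Cyp7a1 was at 54.7 (lowest), 230 (median) and 453 (highest) CPM in WT, 74.7, 350 and 574 CPM in Het, and 261, 418 and 530 CPM in Homo. The groups overlapped across most of their range, and the log2 fold changes of 0.72 ± 0.51 (SE) in Homo and 0.46 ± 0.51 in Het had adjusted p of 0.571 and 0.835. Their direction depended on the mice: without mice 1 to 3 they were 0.10 and -0.16, with the mouse number added as a term -0.08 and -0.26, and within mice 8 to 13 the Homo estimate was -0.38. Cyp7b1, the oxysterol hydroxylase of the alternative route, had medians of 51.7 CPM in WT, 84.3 CPM in Het and 70.5 CPM in Homo, with log2 fold changes of 0.59 ± 0.36 and 0.67 ± 0.36 in Homo and Het and intervals that included 0.

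Cyp27a1, the mitochondrial side-chain hydroxylase, was among the steadiest of the 32, at 141 to 175 CPM in WT, 144 to 179 CPM in Het and 138 to 174 CPM in Homo. Its 95% intervals against WT were -0.16 to 0.13 (log2) in Homo and -0.14 to 0.15 in Het. Cyp8b1 was at 21.2, 38.4 and 58.5 CPM (lowest, median, highest) in WT, 33.2, 46.7 and 58.0 CPM in Het and 18.5, 38.1 and 58.9 CPM in Homo, so the 3 ranges lay over each other. Cyp2c70, which makes the muricholic acids of mice, had log2 fold changes of -0.23 ± 0.28 in Homo and -0.35 ± 0.28 in Het.

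Cyp39a1, an oxysterol hydroxylase of the endoplasmic reticulum, was the one gene of the 32 in which any 2 genotypes did not overlap. It was at 26.9, 32.1 and 50.6 CPM in WT, 34.7, 40.8 and 53.6 CPM in Het, and 19.9, 25.3 and 31.8 CPM in Homo. Every Homo mouse lay below every Het mouse, while both overlapped WT. How many of all genes tested separate in this way was not counted, so the non-overlap has no background share. For Cyp39a1, Homo was lower than Het by 0.75 ± 0.16 on the log2 scale, a fold of 0.593 (95% interval -1.08 to -0.43 in log2, edgeR adjusted p = 0.0553). The exact permutation test over mice gave a two-sided p of 0.00216 unadjusted, the smallest that 924 splits allow. Groups without overlap always give this smallest p, so it restates the separation and is no further support. The adjusted p was under 0.05 with DESeq2 (0.00141), without mice 1 to 3 (0.0401), with the mouse number added as a term (0.0363), with only the 2 genotypes in the fit (0.0462) and with a filter of 1 CPM in 6 libraries (0.0488), and 4 of the 19 fits that left out 1 library called it. Between Homo and Het, Cyp39a1 was not called with limma-voom, with DESeq2's size factors in edgeR, without the low count filter or within mice 14 to 20. With 1 library left out its highest edgeR adjusted p was 0.161 (without Homo replicate 3). Against WT, Homo was at -0.49 ± 0.15 (adjusted p = 0.168) and Het at 0.26 ± 0.15 (adjusted p = 0.633). Cyp39a1 (ENSMUSG00000023963.10) spans chr17:43667425-43751431 on the plus strand of GRCm38, the chromosome that also carries Pkd1.

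Hsd3b7, which oxidises the sterol ring after the first hydroxylation, was at 298, 400 and 617 CPM in WT, 275, 298 and 393 CPM in Het and 240, 290 and 397 CPM in Homo. The log2 fold changes were -0.48 ± 0.16 in Homo and -0.46 ± 0.16 in Het, with adjusted p of 0.215 and 0.454. The height of the WT group came from mice 1 to 3, at 474 to 617 CPM, whereas WT mice 9 to 13 lay at 298 to 400 CPM. Without mice 1 to 3 the differences were -0.14 and -0.11, and within mice 8 to 13 (2 Homo and 4 WT) the Homo estimate was 0.14. All exon bases of Hsd3b7 (chr7:127800604-127803802, GRCm38) are shared with Gm49388 on the same strand or 9430064I24Rik on the other strand in GENCODE. The share of each gene alone was not worked out. The Hsd3b7 count therefore depends on how the authors' annotation and strand setting treat these overlaps.

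Acox2, the peroxisomal oxidase that opens side-chain shortening, was at 108, 164 and 202 CPM in WT, 101, 124 and 182 CPM in Het and 77.7, 103 and 133 CPM in Homo. The ranges overlapped, with Het between the other two in median. The log2 fold change was -0.59 ± 0.16 in Homo (edgeR adjusted p = 0.110, DESeq2 adjusted p = 0.0203) and -0.29 ± 0.16 in Het (adjusted p = 0.612), and without mice 1 to 3 it was -0.37 and -0.06. Baat, which joins bile acids to taurine and glycine, was at 93.1, 104 and 120 CPM in WT, 90.4, 98.2 and 103 CPM in Het and 83.8, 90.05 and 99.4 CPM in Homo. It differed by -0.25 ± 0.07 in Homo (edgeR adjusted p = 0.110, DESeq2 adjusted p = 0.0226) and -0.14 ± 0.07 in Het (adjusted p = 0.558); without mice 1 to 3, which held the 3 highest Baat values at 117 to 120 CPM, the values were -0.14 and -0.03. Leaving out WT replicate 6 gave adjusted p of 0.0454 for both genes in Homo.

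Slc27a5, the ligase that activates bile acids for conjugation, was at 219.5, 246 and 267 CPM in WT, 212, 219 and 276 CPM in Het and 179, 224 and 241 CPM in Homo, with a log2 fold change of -0.17 ± 0.08 in Homo (adjusted p = 0.352). The other 6 synthesis genes gave estimates close to 0 in Homo against WT, from Amacr, the side-chain racemase, at -0.12 ± 0.09 to Hsd17b4, the next peroxisomal enzyme after Acox2, at 0.05 ± 0.06. Scp2 was at -0.0030 ± 0.08, the ring reductase Akr1d1 at 0.0038 ± 0.15, the thioesterase Acot8 at -0.01 ± 0.10 and the acyl-CoA synthetase Slc27a2 at 0.04 ± 0.08. Acox2 had the lowest estimate of the 16 synthesis genes, and Hsd17b4 and Scp2, which act after it in the peroxisome, had intervals that included 0.

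**Figure D3:**
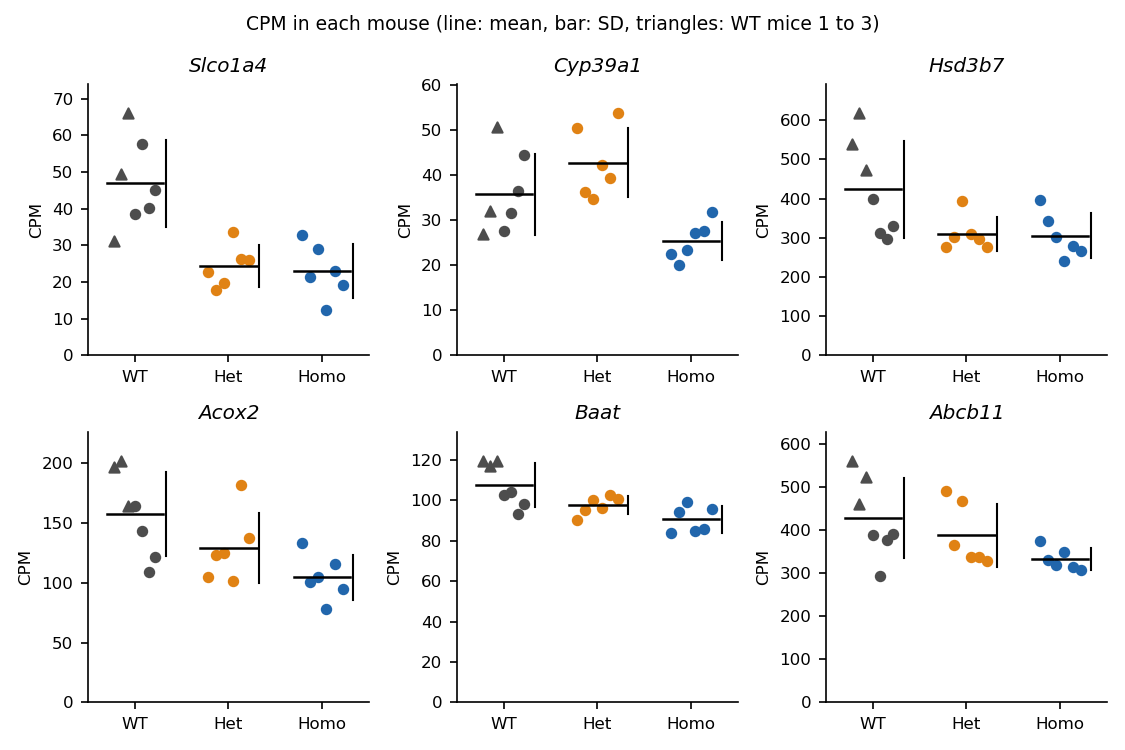
CPM of 6 genes in every mouse by genotype, each axis from 0, with the mean as a line, the SD as a bar and WT mice 1 to 3 as triangles. Slco1a4 is lower in Het and Homo alike, every Homo value of Cyp39a1 lies below every Het value, and for Hsd3b7, Baat and Abcb11 the 3 triangles are the 3 highest WT values.

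Among the 5 uptake carriers only Slco1a4 was called. Slco1a4 (Oatp1a4) takes up bile salts and other organic anions at the sinusoidal membrane. In WT mice 1, 2, 3, 9, 11, 12 and 13 it was at 31.1, 49.3, 65.9, 38.6, 57.7, 40.2 and 45.0 CPM. The 6 Het mice lay at 17.6 to 33.7 CPM (median 24.4) and the 6 Homo mice at 12.2 to 32.8 CPM (median 22.2). Het mouse 14 and Homo mouse 8 lay just above the lowest WT mouse, mouse 1, and the other Het and Homo mice were below every WT mouse. Slco1a4 fell by 1.03 ± 0.21 on the log2 scale in Homo, a fold of 0.489 (95% interval -1.46 to -0.60; edgeR adjusted p = 0.0248; exact permutation test, two-sided p = 0.00175 unadjusted). In Het the log2 fold change was -0.94 ± 0.21, a fold of 0.521 (95% interval -1.37 to -0.51; edgeR adjusted p = 0.342, unadjusted p = 0.00019; DESeq2 adjusted p = 0.0102; exact permutation test, two-sided p = 0.00175 unadjusted). Homo and Het differed by -0.09 ± 0.21, with an interval of -0.53 to 0.35, which leaves room for a moderate difference in either direction. The Homo estimate kept its sign in all 19 fits that left out 1 library (-1.17 to -0.91) and was called in 15 of them. The call was lost without WT replicate 3, WT replicate 5, Homo replicate 2 or Homo replicate 6 (adjusted p = 0.0658, 0.0502, 0.0614 and 0.0680), within mice 8 to 13 (-0.75, 0.606), without mice 1 to 3 (-0.99, 0.124) and with the mouse number added as a term (-1.05, 0.0834). Slco1a4 did not follow the mouse number (log2 slope 0.0032 ± 0.02 per number, adjusted p = 0.947).

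Slco1a1, the neighbouring gene of the same carrier family on chromosome 6, was not called in either genotype. It was at 110, 216 and 321 CPM in WT, 139, 297 and 315 CPM in Het and 130, 250 and 280 CPM in Homo, with log2 fold changes of 0.06 ± 0.23 and 0.23 ± 0.23. The log2 ratio of Slco1a4 to Slco1a1 in the same liver was -2.22 ± 0.37 (SD, n = 7) in WT, -3.40 ± 0.63 (n = 6) in Het and -3.38 ± 0.63 (n = 6) in Homo. This neighbour was set beside Slco1a4 after the values of both were known, so the ratio is a description with no test. In exon sequence 1.61% of the 50-base windows of Slco1a4 also occur in another gene, most in Slco1a5, and 1.64% of those of Slco1a1, a small share of either transcript.

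The 250 bases before the RefSeq start of Slco1a4 and Slco1a1 are shown because the first was called and the second, its neighbour, was not, and those of Abcb11 because its level followed the mouse number. All 3 genes lie on the minus strand and the sequences run 5′ to 3′ along the gene, from RefSeq on GRCm38.p6: Slco1a4 at chr6:141856221-141856470, Slco1a1 at chr6:141946963-141947212 and Abcb11 at chr2:69342617-69342866. Capitals mark AGGTCA, the half-site bound by many nuclear receptors, or its complement TGACCT.
Slco1a4: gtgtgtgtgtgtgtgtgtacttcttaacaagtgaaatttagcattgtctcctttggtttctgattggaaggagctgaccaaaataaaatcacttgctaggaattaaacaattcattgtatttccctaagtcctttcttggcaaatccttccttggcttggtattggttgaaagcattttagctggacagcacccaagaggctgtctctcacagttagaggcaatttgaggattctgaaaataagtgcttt
Slco1a1: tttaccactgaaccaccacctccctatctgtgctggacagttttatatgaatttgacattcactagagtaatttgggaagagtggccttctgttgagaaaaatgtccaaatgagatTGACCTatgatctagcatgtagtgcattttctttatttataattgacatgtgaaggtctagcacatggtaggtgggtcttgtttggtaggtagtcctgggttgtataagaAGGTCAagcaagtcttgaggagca
Abcb11: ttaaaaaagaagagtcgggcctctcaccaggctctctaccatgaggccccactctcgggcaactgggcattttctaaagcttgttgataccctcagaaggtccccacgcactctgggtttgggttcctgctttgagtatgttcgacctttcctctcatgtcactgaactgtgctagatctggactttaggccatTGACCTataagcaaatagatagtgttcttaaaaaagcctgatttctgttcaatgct
Searched on both strands, AGGTCA was in none of the 250 bases of Slco1a4, at 134 and 24 bases before the start of Slco1a1, and at 56 bases before the start of Abcb11. Over 32851 RefSeq promoters of the same length, 14.0% held it, and 12 of the 30 promoters that the table lists for 25 of the 34 genes did. The perfect inverted repeat of this half-site with 1 base between, searched on both strands, was in 0.0061% of all promoters and in 0 of those 30. Imperfect repeats were not searched. At the marked Abcb11 site the bases differ from the perfect repeat by 1 letter, so this site is not in the count. A match is a run of letters and no measured binding.

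Slc10a1 (Ntcp), the sodium-dependent carrier of conjugated bile acids, was at 360, 398 and 429 CPM in WT, 338, 356 and 421 CPM in Het and 271, 344 and 389 CPM in Homo. Its log2 fold change was -0.24 ± 0.08 in Homo (adjusted p = 0.206) and -0.13 ± 0.08 in Het (adjusted p = 0.664). The organic anion carrier Slco2b1 was at 377, 419.5 and 449.5 CPM in WT, 338, 381 and 429.8 CPM in Het and 302, 363 and 397 CPM in Homo, with values of -0.21 ± 0.07 (adjusted p = 0.167) and -0.12 ± 0.07 (adjusted p = 0.630). In both, Homo and Het overlapped WT, and the Het estimate was the smaller one. Slco1b2, the most abundant uptake carrier per kilobase, had medians of 1268, 1287 and 1288 CPM and a log2 fold change of 0.05 ± 0.07 in either genotype (95% interval -0.10 to 0.20 in each).

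Of the genes of export into bile none was called by edgeR in a genotype comparison. Abcb11 (Bsep), the bile salt pump of the canalicular membrane, was at 294, 391 and 562 CPM in WT, 329, 352 and 493 CPM in Het and 308, 325 and 375 CPM in Homo. The Homo mice filled the lower part of the WT range. The log2 fold change was -0.36 ± 0.13 in Homo (adjusted p = 0.240) and -0.14 ± 0.13 in Het (adjusted p = 0.787), and without mice 1 to 3 it was -0.13 and 0.10. Abcb4, the phospholipid floppase that protects ducts from bile salts, was at 0.16 ± 0.10 and 0.14 ± 0.10. Abcc2, the pump of conjugated organic anions, was at -0.05 ± 0.06 and -0.0055 ± 0.06, and the lipid flippase Atp8b1 at -0.01 ± 0.08 and 0.02 ± 0.08. For Abcc2 the 95% interval in Homo was -0.17 to 0.08, the narrowest range among the 4 genes.

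Export back to blood was led by Abcc3, at 65.0, 101 and 169 CPM in WT, 37.9, 82.1 and 101 CPM in Het and 82.2, 86.8 and 93.1 CPM in Homo. The WT and Het mice spread far more than the Homo mice. The log2 fold change was -0.41 ± 0.20 in Het (adjusted p = 0.565) and -0.25 ± 0.19 in Homo (adjusted p = 0.614). Abcc4, a second basolateral pump, had medians of 6.58, 7.04 and 6.94 CPM. The 2 subunits of the organic solute transporter were near 0, Slc51a at 0 to 4 counts and Slc51b at 1 to 22 counts per library, and a log2 fold change of -0.55 ± 0.61 for Slc51b in Homo cannot be told from 0 at this depth.

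Among receptors and controlling factors, the bile acid receptor Nr1h4 was at 186, 328 and 373 CPM in WT, 229, 352 and 410 CPM in Het and 313, 342 and 397 CPM in Homo, with log2 fold changes of 0.26 ± 0.16 in Homo and 0.20 ± 0.16 in Het (adjusted p = 0.527 and 0.763). These too turned without mice 1 to 3, to -0.04 and -0.09; with the mouse number added as a term they were -0.03 and 0.0093. Nr0b2, the repressor that Nr1h4 induces, was at 4.08, 9.81 and 36.6 CPM in WT, 2.02, 7.78 and 16.4 CPM in Het and 4.42, 9.90 and 26.0 CPM in Homo. The estimates of -0.60 ± 0.54 and -1.02 ± 0.55 had intervals that included 0 (adjusted p = 0.684 and 0.605). Both turned without mice 1 to 3, to 0.82 in Homo and 0.40 in Het, and within mice 8 to 13 the Homo estimate was 0.61. The Nr0b2 range was 29.1 to 36.6 CPM for WT mice 1 to 3 and 4.08 to 9.81 CPM for WT mice 9 to 13. Within 1 genotype the 2 runs of numbers thus did not overlap. How many of all genes tested separate at this split was not counted, so this non-overlap has no background share. The hormone receptor Fgfr4 (95% intervals -0.23 to 0.24 in Homo and -0.20 to 0.27 in Het) and its partner Klb (-0.17 ± 0.13 and -0.03 ± 0.13) had intervals that included 0. The membrane receptor Gpbar1 was at 0 to 6 counts per library.

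By edgeR's adjusted p, none of the 32 genes was already lower in Het. Slco1a4 had nearly the same estimate in Het as in Homo, and DESeq2 called it in both. Hsd3b7 had close estimates in both as well, but they shrank from -0.48 and -0.46 to -0.14 and -0.11 when WT mice 1 to 3 were left out. Acox2, Baat, Slc27a5, Slc10a1, Slco2b1 and Abcb11 had Het estimates between 0 and the Homo estimate, and Homo and Het were not called different for any of them. Without mice 1 to 3 the Het estimate was near 0 for Acox2 (-0.06), Baat (-0.03) and Slc10a1 (-0.07), above 0 for Abcb11 (0.10), and -0.12 for Slco2b1 and -0.09 for Slc27a5. Abcc3, lower in Het at an unadjusted p under 0.05, had a Het estimate (-0.41) farther from 0 than the Homo estimate (-0.25). Cyp39a1 had a Homo estimate below 0 and a Het estimate above 0. Of the 10 bile duct markers tested, 3 were called higher in Homo than in WT, beside 48 of all 16463 genes. In Homo against Het 3 were called higher, beside 24 of all 16463 genes. The part of these markers in the Homo values was not tested.

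The mouse number went with the level of several bile acid genes. In a fit with genotype and mouse number over the 19 libraries, added after earlier results were known, 5 of the 32 genes (15.6%) had a slope at an edgeR adjusted p under 0.05, beside 1054 of all genes (6.40%). Cyp7a1 rose with the number by 0.18 ± 0.02 on the log2 scale per number (adjusted p = 0.000356), a fold of 1.13 per step. Its levels were 54.7 to 91.3 CPM in the WT mice 1 to 3, 74.7 to 205 CPM in Het mice 4 to 7, 261 to 319 CPM in Homo mice 8 and 10, 230 to 453 CPM in WT mice 9 to 13, 495 to 574 CPM in Het mice 14 to 20 and 414 to 530 CPM in Homo mice 15 to 18. In each genotype the low-numbered mice lay below the high-numbered ones without overlap. The share of all genes tested that separate in this way was not counted.

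Nr1h4 rose too, by 0.05 ± 0.0083 per number (adjusted p = 0.00189), from 186 to 230 CPM in WT mice 1 to 3 to 328 to 373 CPM in WT mice 9 to 13. Slc27a2 rose by 0.02 ± 0.0043 per number (adjusted p = 0.0074). Abcb11 fell by 0.04 ± 0.0068 per number (adjusted p = 0.00415) and Hsd3b7 by 0.04 ± 0.0096 (adjusted p = 0.0163). Cyp7a1 and its upstream receptor Nr1h4 rose with the number while the bile salt pump fell. Without mice 1 to 3, Cyp7a1 (0.14 per number, adjusted p = 0.00874) and Nr1h4 (0.03, adjusted p = 0.0333) were still called, and Abcb11 (-0.03, 0.0825), Slc27a2 (0.02, 0.0897) and Hsd3b7 (-0.02, 0.219) were not. The slope of Nr0b2 was not called (-0.02 ± 0.05, adjusted p = 0.873), although its 3 highest WT values were in mice 1 to 3. The order of the numbers and the genotype overlap in part. The 3 lowest numbers are WT, the WT numbers end at 13, the Homo numbers start at 8, and 15 to 18 are all Homo. Leaving out mice 1 to 3 therefore does not fully separate number from genotype.

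**Figure D4:**
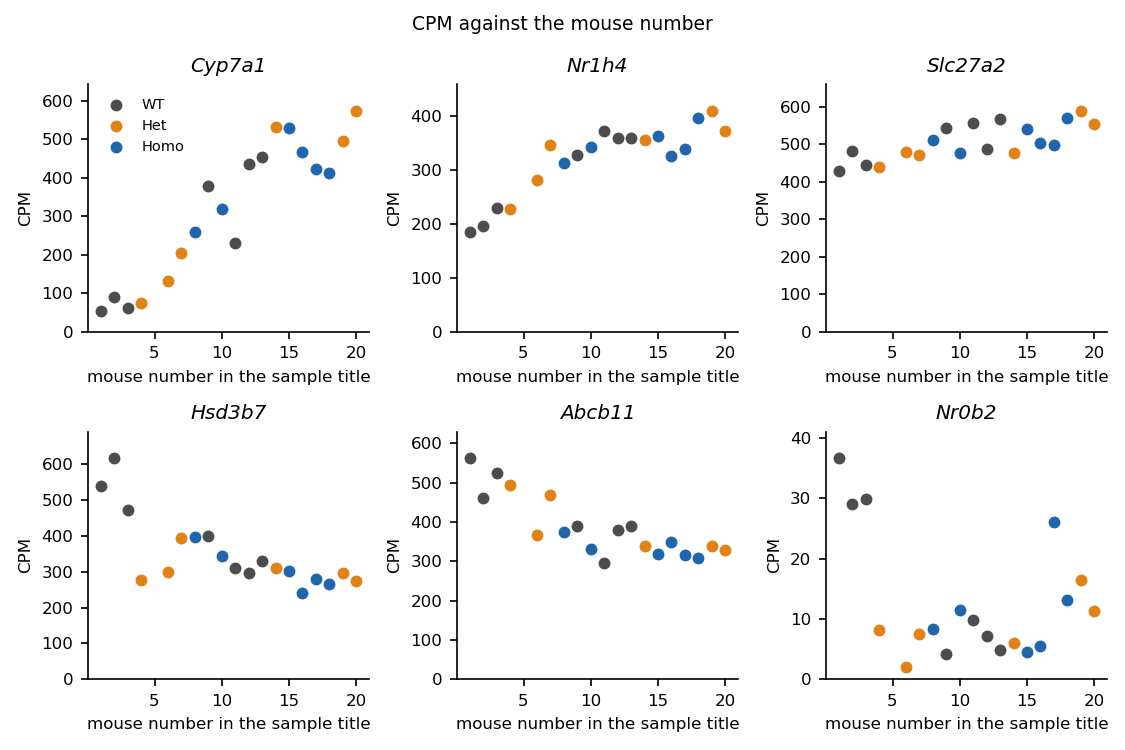
CPM of 6 genes against the mouse number in the sample title, coloured by genotype, 1 point per mouse. Cyp7a1 climbs from 54.7 to 91.3 CPM in mice 1 to 3 to 414 to 574 CPM in Het and Homo mice 14 to 20; Nr1h4 and Slc27a2 rise, Hsd3b7 and Abcb11 fall, and Nr0b2 is highest in mice 1 to 3.

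Of 40 other genes of the pathway, 32 were tested; 1 was called higher and none lower in Homo against WT by edgeR, and none was called in Het against WT. The called gene was Slco3a1, a carrier of the same superfamily as Slco1a4, at 2.29, 2.87 and 3.78 CPM in WT, 2.18, 3.23 and 4.03 CPM in Het and 3.54, 4.58 and 5.40 CPM in Homo. It rose by 0.66 ± 0.14 on the log2 scale in Homo (adjusted p = 0.0438), opposite in direction to Slco1a4, and its Het estimate was 0.14 ± 0.14. At an unadjusted p under 0.05, 4 of the 32 were lower and 3 higher in Homo against WT, and the median log2 fold change was 0.0077. Of all genes tested in that comparison, 6.52% were lower and 6.37% higher on that threshold, and 0.480% were called by adjusted p. The counts for the 32 carry no test of the list. The canalicular cholesterol exporters Abcg5 and Abcg8, which work as a pair, were lower in Homo by estimate, at -0.58 ± 0.16 and -0.70 ± 0.21 (adjusted p = 0.139 and 0.163), and in Het at -0.41 ± 0.16 and -0.52 ± 0.21 (adjusted p = 0.516 for each). Among regulators the estimates were -0.25 ± 0.08 for Mafg, a transcriptional repressor of bile acid synthesis genes, -0.13 ± 0.06 for the oxysterol receptor Nr1h2 and -0.10 ± 0.06 for its relative Nr1h3, all in Homo and none called. Among enzymes and partners, the peroxisomal importer Abcd3 was at 0.27 ± 0.13, the reductase Fdxr at -0.21 ± 0.12 and the cholesterol importer Star at 0.31 ± 0.19, none called. On the mouse number, Nr1i3, Ppara and Prox1 were among the genes that rose, and Mafg and Abcg8 fell, at adjusted p from 0.00223 (Nr1i3) to 0.0364 (Ppara).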

How the data were processed

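RNA from 19 mouse livers was extracted with Trizol and RNeasy columns and made into libraries with a NuGen Ovation kit, per the labels' protocols. The submitters' processing notes name STAR 2.7.2b, featureCounts 1.6.4 and GRCm38; the annotation and strand setting are not stated there. The authors deposited 1 table of raw read counts per gene symbol. Its 27 rows with dates in place of symbols held 0.145 to 0.174% of counts. Replicates differed beyond sampling noise (lowest chi-square per degree of freedom 22.6); labels tie each library to 1 mouse number and give no shared batch.

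Genotype was fitted over all 19 libraries with edgeR 4.0.16 in R 4.3.3 (TMM, filterByExpr, quasi-likelihood test, two-sided, Benjamini-Hochberg over 16463 genes). The fit was also run on simulated counts with planted Homo effects. Those counts held no effect of mouse number, so that run does not bear on calls that depend on it. CPM values and exact permutation tests use log2 CPM with a prior count of 2 where logged. DESeq2 1.42.0, limma 3.58.1 (voom with sample weights), other size factors, filters and thresholds, a term for the mouse number, subsets of mice and each library left out were the alternatives. Exon lengths and overlaps are from GENCODE vM21. The 34 genes and all lists were chosen with earlier results of these data known. All 34 are named; those called, those with an unadjusted p under 0.05 against WT, and Cyp7a1, Cyp8b1, Nr1h4, Nr0b2, Slc10a1 and Abcb11 are given by mouse or range; of other pathway genes, those called in a genotype comparison and the 3 smallest p per list.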

Additional observations from a re-analysis of the deposited data

Results flagged for a closer look

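Of the 32 tested genes, 6 had a mouse apart from the rest of its genotype by Dixon's test at the 95% level. The test was run on 96 groups of values. Chance alone flags about 1 group in 20, so 6 flags are not many more than chance gives. Hsd3b7 was at 393 CPM in Het replicate 3 (mouse 7), and the next highest Het value was 310 CPM. Slc10a1 was at 421 CPM in Het replicate 2 (mouse 6), above the next at 367 CPM. Slco1b2 was at 962 CPM in WT replicate 1 (mouse 1), below the next at 1216 CPM; that mouse also had the lowest Slco1a4 and Slco1a1 values of the WT group. Abcc3 was at 169 CPM in WT replicate 5 (mouse 11), above the next at 109 CPM, and Abcc4 at 4.94 CPM in WT replicate 4 (mouse 9), below the next at 6.45 CPM. Klb was at 22.3 CPM in Homo replicate 4 (mouse 16), above the next at 17.2 CPM. No mouse had more than 1 of these 6 values.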

How the results depend on the processing

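No paired analysis was possible because each title carries its own mouse number, shared by no 2 samples. Counts of calls moved as follows. In Homo against WT 79 genes became 304 with DESeq2, 176 at an adjusted p under 0.10, 2 within mice 8 to 13, 25 without mice 1 to 3, 38 with a term for the mouse number and 35 to 122 with 1 library left out; the 1 member became 3, 1, 0, 0, 0 and 0 to 3. In Het against WT 4 genes became 28 with DESeq2 and 4 to 7 with 1 library left out, and 0 members became 1 and 0. In Homo against Het 30 genes became 102 with DESeq2, 16 with limma-voom, 51 at 0.10, 0 within mice 14 to 20 and 9 to 34 with 1 library left out; 0 members became 1 with DESeq2, at 0.10, with the 1 CPM filter, with only 2 genotypes, with that term and without mice 1 to 3, and 0 to 1 with 1 library left out. For the allele trend 74 genes became 303 with DESeq2, 188 at 0.10, 29 with that term, 25 without mice 1 to 3 and 30 to 107 with 1 library left out, and the 1 member 3, 3, 0, 0 and 0 to 3. The mouse number slope called 1054 genes and 5 members, 358 and 2 without mice 1 to 3, and 651 to 1082 and 5 to 6 with 1 library left out. Hsd3b7 in Homo against WT reversed within mice 8 to 13 (0.14, unadjusted p = 0.308). The cause of these moves was not tested. Of 3596 alternative values of the members, 3559 kept their side of the threshold and any direction held at an unadjusted p under 0.05. Another 21 gained a call, 15 lost one and 1 reversed. Nearly all reported values were not called and could lose no call, so the 3559 says little about the calls. All 15 losses were of Slco1a4, the only member called. With 1 library left out it was called in 15 of 19 fits of Homo against WT and 13 of 19 of the allele trend. Signs changed in 265 of the 3596 values, 1 of which (Hsd3b7) had an unadjusted p under 0.05 in the value reported. The median of all genes stayed within 0.0085 of 0 (log2) in every genotype fit. Depth limits Slc51a, Slc51b and Gpbar1; 6 or 7 mice a genotype limit the rest.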
